A study of Homo sapiens with 6 samples.

Results

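SMAD2 binding was examined around 8 genes of the epithelial-mesenchymal transition in Hs578T cells: the transcription factors SNAI1, SNAI2, ZEB1, ZEB2 and TWIST1, and the markers CDH1, CDH2 and VIM. The genes were chosen by name, with earlier results of these data known. A SMAD2 peak was counted for a gene when its summit lay within 50 kb of the transcription start site on hg19. The summit is the base of highest signal. Summits of the libraries no more than 250 bp from the next were joined into 1 site, so that the same peak could be followed from library to library. This gave 68 summits in 29 sites for the 8 genes, of 36648 sites in all.

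In the epithelial-mesenchymal transition, cells give up adherens junctions and polarity and take on a motile, mesenchymal form. The SNAI and ZEB zinc-finger proteins bind E-box sequences and repress epithelial genes, of which CDH1, encoding E-cadherin, is the classic target. TWIST1 is a basic helix-loop-helix factor of the same programme, and CDH2 (N-cadherin) and VIM (the intermediate filament vimentin) are the usual mesenchymal markers. TGF-β and activin receptors phosphorylate SMAD2, which then enters the nucleus with SMAD4, and this signal is a well known inducer of the transition. Hs578T is an established line of triple-negative breast cancer (without oestrogen receptor, progesterone receptor or HER2 amplification) that is mesenchymal in form.

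Every sample was stimulated with activin A (50 ng/ml, 1.5 h). Chromatin was immunoprecipitated with an antibody to SMAD2 from cells given activin A alone (the activin group, 2 libraries) or also 1 µM palbociclib, an inhibitor of CDK4 and CDK6, for 24 h (the palbociclib group, 2 libraries). The lists came from 1 cell line, there was no ChIP library without activin, and peaks show binding, not expression, so the mesenchymal state itself was not checked. The replicates are separate samples by their labels, which do not state separate cultures, so their spread may be technical. For activin the lists held 25553 (replicate 1) and 7241 summits (replicate 2), and for palbociclib 27290 and 19226. Read depth is unknown, and activin replicate 2, with the short list, stands apart from the other 3. The labels give each group an input library of its own. If each was used to call the peaks of its group, treatment and input cannot be told apart.

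SMAD2 was found close to the start sites of 7 of the 8 genes, and CDH1 had no peak in its window in any library. Activin replicate 1 and both palbociclib libraries held summits at the same 7 genes, whereas activin replicate 2 held summits only at SNAI1, CDH2 and VIM. As a background, the genome was divided into 30423 tiles of 100 kb. With activin alone, 28.1% of the tiles held a summit of replicate 1 and 14.8% a summit of replicate 2. With palbociclib the shares were 28.8% and 25.1%. The tiles include gene-poor regions, and windows around the start sites of other genes were not analysed here, so the 7 of 8 cannot be set against genes in general.

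The sites gathered at the start sites. Of the 29 sites, 11 (37.9%) lay within 1 kb of a start site, a span that makes up 2.0% of the window, and 24 (82.8%) lay within 10 kb, or 20% of the window. Downstream of the start lay 21 sites and upstream 8. Sites around other starts were not analysed here, so whether gathering at the start is particular to these genes was not tested. Each of SNAI1, SNAI2, ZEB1, ZEB2, TWIST1 and CDH2 had a site within 1 kb that was listed in at least 3 libraries, and the nearest VIM site was 1.11 kb downstream. The outermost site of any window was 46.8 kb upstream of SNAI1, and the first site beyond a window was 67.5 kb upstream of the same gene.

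**Figure D1:**
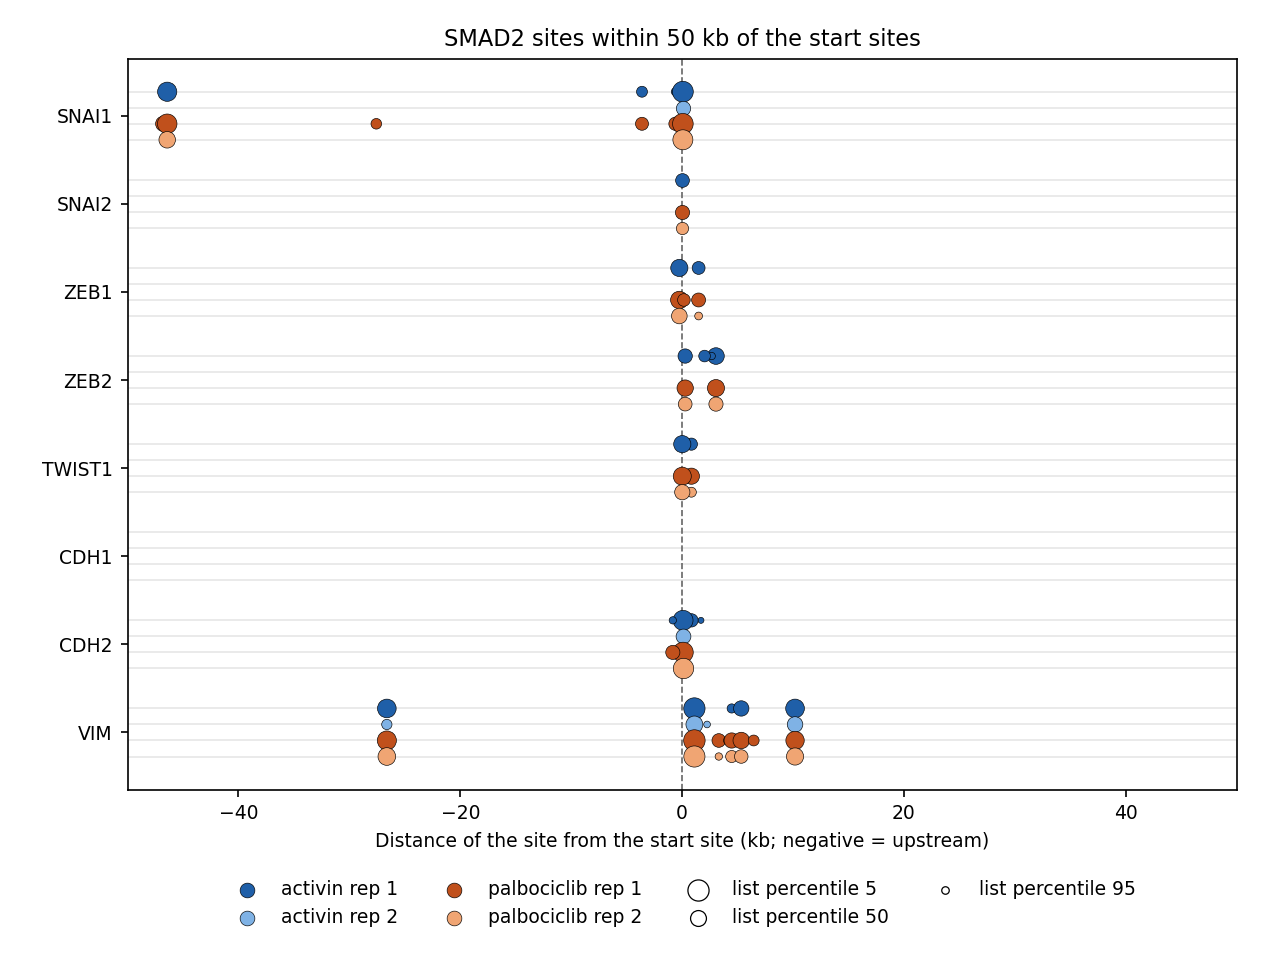
Position of each SMAD2 site relative to the start site (kb, negative upstream) for the 8 genes, with 1 line per library; larger points rank higher within the library's own list. The points stack at the start sites, the CDH1 lines are empty, and the activin replicate 2 line holds points only at SNAI1, CDH2 and VIM.

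Strength was described by the rank of the authors' peak score within a library's own list of sites, as a percentile with 0 for the strongest and 100 for the weakest site. Lists differ in length, so these percentiles place a site within 1 library and show no change between libraries.

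SNAI1, encoding Snail, the zinc-finger repressor that is a direct early target of TGF-β signalling, carried 6 sites, of which the strongest sat at the start site (chromosome 20, 48599513). That site ran from 48599575 to 48599586, so the summits of the 4 libraries fell within 11 bp of each other, 62 to 73 bp downstream of the start. The authors' score there was 91.7 and 7.41 with activin alone (replicates 1 and 2) and 130 and 57.3 with palbociclib. With activin alone it ranked 2054 of 25414 sites (percentile 8.08) and 4369 of 7220 (60.5), and with palbociclib 2692 of 27212 (9.90) and 3051 of 19143 (15.9). It was thus among the stronger sites of 3 libraries and a middling one in the short list. A second site, 46.4 kb upstream at 48553062 to 48553127, was listed in all libraries but activin replicate 2, at percentiles of 23.1, 20.1 and 45.0. The next protein-coding gene on that side of SNAI1 is RNF114, in the RefSeq gene order, and the site may belong to either gene. Sites 598 bp and 3.62 kb upstream were listed only in the replicate 1 libraries, at percentiles between 67.1 and 92.0. The other 2 sites, 27.6 and 46.8 kb upstream, were in palbociclib replicate 1 alone and may also belong to SNAI1 or RNF114.

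SNAI2, encoding Slug, the close relative of Snail with a role in neural crest migration, had 1 site, which lay on the start site itself (chromosome 8, 49833988). The summit was at the annotated base in activin replicate 1, 31 bp downstream in palbociclib replicate 1 and 40 bp downstream in palbociclib replicate 2. Its percentiles were 64.5, 61.5 and 73.3, so it was a weak site in each of these lists. Activin replicate 2 had no summit within 960 kb of the start.

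ZEB1, whose protein represses CDH1 and the miR-200 microRNAs, had 3 sites, all within 1.49 kb of the start (chromosome 10, 31608101). The strongest lay 252 bp upstream, at 31607819 to 31607879, with percentiles of 40.0 with activin alone (replicate 1) and 37.7 and 51.6 with palbociclib. A weaker site 1.49 kb downstream was in the same 3 libraries, at percentiles of 69.9, 63.3 and 93.9, and a site 159 bp downstream was in palbociclib replicate 1 alone. ZEB1 overlaps the antisense RNA gene ZEB1-AS1 in the RefSeq table, so a summit at the start may belong to either gene.

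ZEB2, also named SIP1 (SMAD-interacting protein), had 4 sites, which reached from 276 bp to 3.05 kb downstream of the start (chromosome 2, 145277958). The site 3.05 kb downstream, at 145274890 to 145274923, had percentiles of 44.4 with activin alone (replicate 1) and 40.6 and 61.6 with palbociclib. The site 276 bp downstream, at 145277646 to 145277719, was the weaker of the pair in each of these libraries, at 60.8, 46.6 and 64.5. Sites 2.02 and 2.67 kb downstream were in activin replicate 1 alone, at percentiles of 76.7 and 95.7 of its list. As at ZEB1, an antisense RNA gene, ZEB2-AS1, overlaps ZEB2.

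TWIST1 had 2 sites, both in the 3 libraries other than activin replicate 2. At the start site (chromosome 7, 19157295) the summits lay 7 bp upstream in activin replicate 1 and 36 and 12 bp downstream in palbociclib replicates 1 and 2. The percentiles of that site were 39.9, 33.0 and 54.4. The other site was 835 bp downstream, at percentiles of 73.9, 47.8 and 85.2. In each of the 3 libraries the site at the start was the stronger of the pair. TWIST1 overlaps the gene LOC124901597 in the RefSeq table, so either site may belong to that gene.

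CDH1, the epithelial member, had no summit within 50 kb of its start (chromosome 16, 68771195) in any of the 4 libraries. The nearest summit was far downstream, at nearly the same base in all of them: 106286 and 106315 bp from the start with activin alone, and 106312 and 106311 bp with palbociclib. On that side the next protein-coding gene is TANGO6, in the RefSeq gene order. On the other side, where the next gene is the cadherin gene CDH3, the nearest site was 198 kb upstream of the CDH1 start. A peak list holds only signal past the caller's threshold, so weaker binding at CDH1 was not detectable here.

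CDH2 had 4 sites within 1.7 kb of its start (chromosome 18, 25757445), and 1 of them dominated. It ran from 25757341 to 25757377, with summits 104 and 71 bp downstream of the start with activin alone, and 97 and 68 bp with palbociclib. The authors' score was 63.1 and 7.86 in the activin libraries and 114 and 64.7 in the palbociclib libraries. Its percentiles were 16.6 and 57.5 for activin, against 12.6 and 12.5 for palbociclib. A site 839 bp upstream was listed in the replicate 1 libraries only, and those 841 bp and 1.70 kb downstream in activin replicate 1 only, all at percentiles of 62.0 or weaker. CDH2 overlaps the antisense RNA gene CDH2-AS1 in the RefSeq table, so a summit at the start may belong to either gene.

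VIM had the most sites, 9, and the strongest of all 29. That site lay 1.11 kb downstream of the start (chromosome 10, 17270258), from 17271347 to 17271382. Its percentile was 3.43 and 42.2 with activin alone and 1.76 and 4.87 with palbociclib, and its rank in palbociclib replicate 1 was 480 of 27212. It had the best percentile of the members in every library.

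Further sites were strung along the VIM region, most of them on its downstream side. A site 10.2 kb downstream, at 17280342 to 17280529, was in all 4 libraries, with percentiles of 27.6 and 52.3 in the activin libraries and 30.2 and 40.1 in the palbociclib libraries. Another, 26.6 kb upstream at 17243576 to 17243691, was also in all 4, at 27.9 and 83.6 and at 24.1 and 36.3. On that side of VIM the next protein-coding gene is TRDMT1, in the RefSeq gene order, and the site may belong to either gene. Sites 4.47 and 5.33 kb downstream were in every library but activin replicate 2, at percentiles between 45.4 and 88.5. A site 3.31 kb downstream, at 17273544 to 17273588, was in both palbociclib libraries alone, and it was weak there, at 64.9 and 95.3. Of the remaining 3, those 4.08 and 6.45 kb downstream were in palbociclib replicate 1 alone, and that 2.25 kb downstream was in activin replicate 2 alone. VIM overlaps the RNA gene VIM-AS1, which cannot be parted from it by position.

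**Figure D2:**
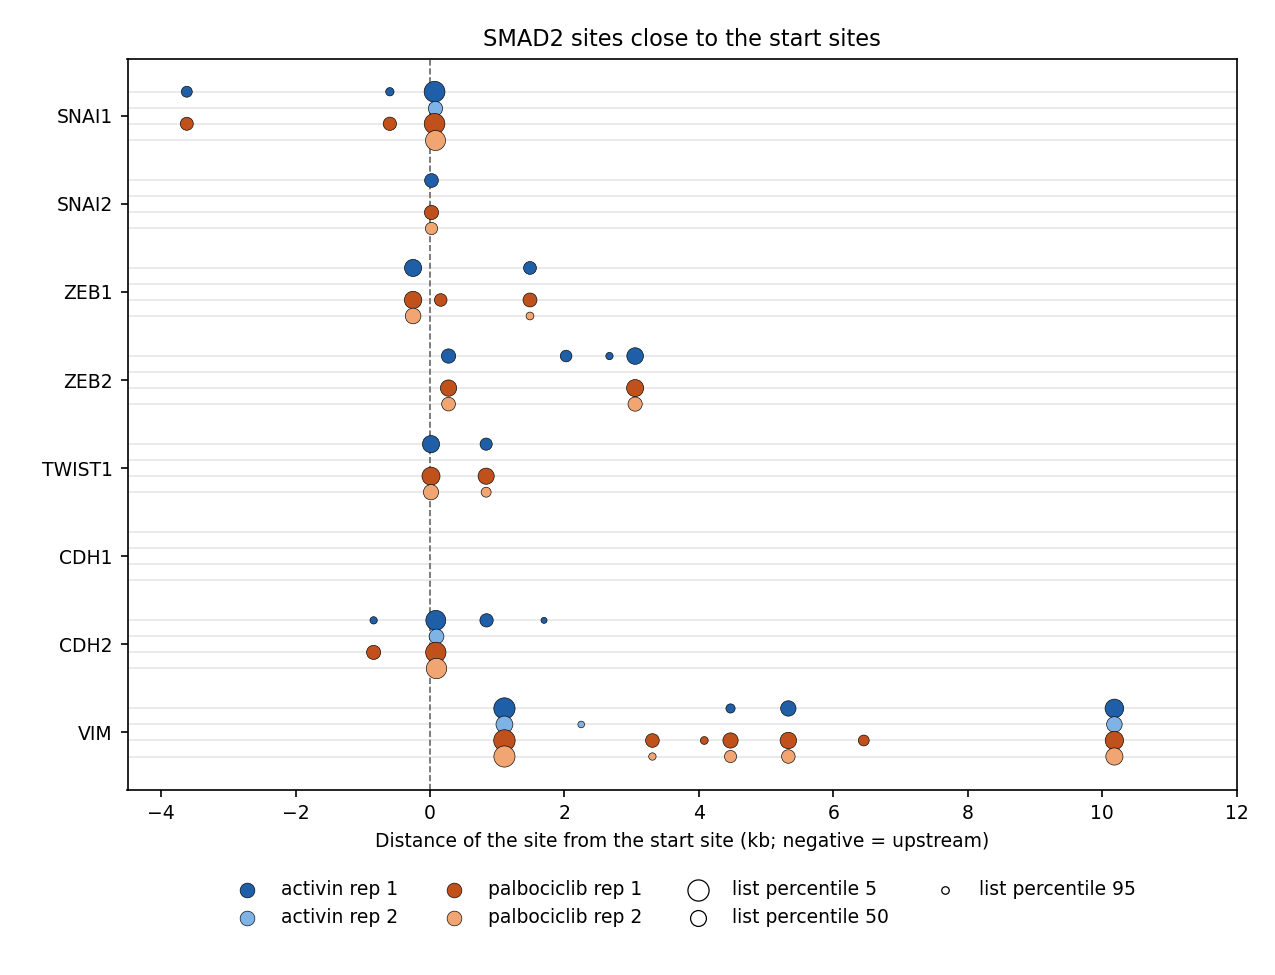
The same sites close to the start sites, out to just beyond 10 kb downstream, with distance in kb and point size by list percentile. Summits of SNAI1, SNAI2, TWIST1 and CDH2 line up at the start, those of ZEB1 fall on both sides of it, and VIM carries a string of sites downstream.

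At 5 sites of 3 genes all libraries had a summit, and the summits of such a site spread over 11 to 187 bp with a median of 36 bp, against a median of 46 bp over all sites found in 4 libraries. For the 10 member sites found in 3 libraries the spread was 33 to 235 bp, with a median of 69 bp against 49 bp over all such sites.

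Promoter sequence was available for 4 of the genes in the RefSeq table, which is on build GRCh38.p14. It is shown for ZEB1, ZEB2 and CDH2 because a SMAD2 site lay within 1 kb of their start, and for VIM because its site was the strongest, a choice made after the values were seen. Each run is the 250 bases before the outermost start in the table, 5′ to 3′ on the gene's strand. The table lists 7 starts for ZEB1 and 2 for CDH2, and these coordinates were not matched to those on hg19. Capitals mark CAGAC (the SMAD box with a flanking base), GGCGC (a GC-rich SMAD motif), TGANTCA (AP-1) or CACCTG (the E-box of SNAI and ZEB proteins), on either strand. No window held matches to more than 1 of the 4 motifs.
ZEB1, chr10:31318167-31318416, plus strand: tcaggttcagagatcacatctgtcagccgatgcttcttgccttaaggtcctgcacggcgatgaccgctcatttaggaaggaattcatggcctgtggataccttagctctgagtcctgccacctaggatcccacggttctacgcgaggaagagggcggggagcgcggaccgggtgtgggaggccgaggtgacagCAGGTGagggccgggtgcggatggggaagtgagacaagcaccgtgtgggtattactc
ZEB2, chr2:144520120-144520369, minus strand: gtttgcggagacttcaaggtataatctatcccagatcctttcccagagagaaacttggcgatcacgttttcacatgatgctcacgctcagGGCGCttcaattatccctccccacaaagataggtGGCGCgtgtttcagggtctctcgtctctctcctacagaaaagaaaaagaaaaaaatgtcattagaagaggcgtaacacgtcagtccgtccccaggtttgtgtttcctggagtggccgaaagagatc
CDH2, chr18:28177131-28177380, minus strand: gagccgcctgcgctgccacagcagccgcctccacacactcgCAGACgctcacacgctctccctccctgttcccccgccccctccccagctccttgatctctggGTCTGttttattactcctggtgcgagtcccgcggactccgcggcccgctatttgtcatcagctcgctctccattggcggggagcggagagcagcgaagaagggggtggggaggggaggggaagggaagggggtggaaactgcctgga
VIM, chr10:17227991-17228240, plus strand: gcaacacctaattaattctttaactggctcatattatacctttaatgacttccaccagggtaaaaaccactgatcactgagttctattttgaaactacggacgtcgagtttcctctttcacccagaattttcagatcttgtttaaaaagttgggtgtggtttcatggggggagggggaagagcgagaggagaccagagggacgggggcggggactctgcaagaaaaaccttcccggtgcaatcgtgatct

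The CDH2 promoter held 2 CAGAC matches, a motif present in 38.0% of the 35116 promoters of the table. That of ZEB2 held 2 GGCGC matches, present in 44.5%. That of ZEB1 held 1 CACCTG match, present in 17.5%. The VIM window held no match to any of the 4, and TGANTCA, present in 6.57% of promoters, was in none of the 4 windows. The GC content was 59.2% at ZEB1, 48.0% at ZEB2, 66.0% at CDH2 and 46.0% at VIM, against a median of 58.0% over the table. These matches describe the letters of the windows only. Whether a window covers a summit was not tested, since its coordinates were not matched to hg19. The strongest VIM site lay 1.11 kb downstream of the hg19 start, whereas the VIM window lies before the start in the table.

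**Figure D3:**
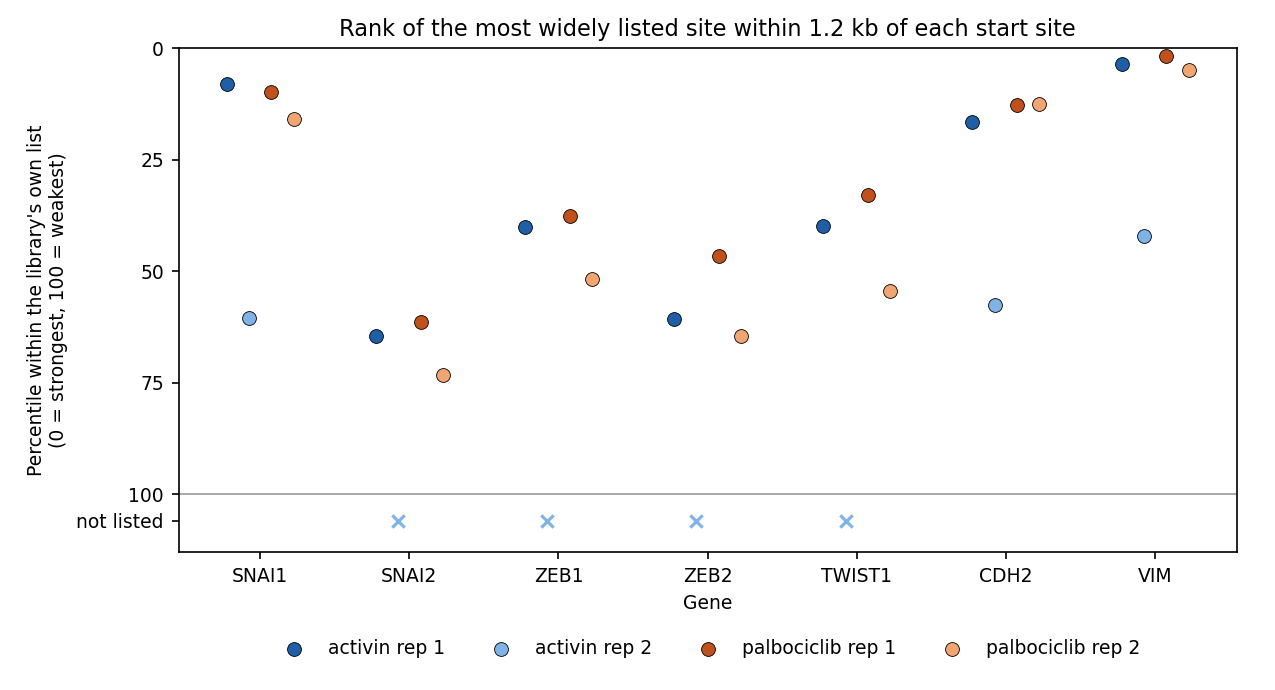
Percentile of the most widely listed site within 1.2 kb of each start site, within each library's own list (0 strongest, 100 weakest); a cross marks a library that did not list the site. VIM, SNAI1 and CDH2 rank high in 3 libraries and are the genes listed in activin replicate 2, while SNAI2, ZEB1, ZEB2 and TWIST1 rank lower and are not listed there.

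The member sites listed in activin replicate 2 were compared with their strength in the other lists. The other 3 libraries shared 15 member sites, of which activin replicate 2 held 5 (33.3%), against 41.4% of the 14075 such sites genome-wide. The sites were ordered by their mean percentile in those 3 libraries and divided into 4 bins of equal size. In the strongest bin activin replicate 2 held 96.0% of all sites and 3 of 3 member sites (VIM at 1.11 kb, SNAI1 and CDH2 at their starts). In the next it held 57.7% of all sites and 1 of 2 member sites, where it lacked the SNAI1 site 46.4 kb upstream. In the third bin the values were 10.8% and 1 of 4, and in the weakest 1.25% and 0 of 6. The start-site peaks of ZEB1 and TWIST1 were in the third bin, and those of ZEB2 and SNAI2 in the weakest. The order was not strict, since the SNAI1 site 46.4 kb upstream (mean percentile 29.4) was missing and the weaker VIM site 10.2 kb downstream (32.6) was listed. The activin replicate 2 summit of that VIM site lay 163 bp from the nearest other summit and may be a separate peak. The counts of 5 of 15 and 1 of 4 include it. The part of strength or list length in these absences was not tested.

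**Figure D4:**
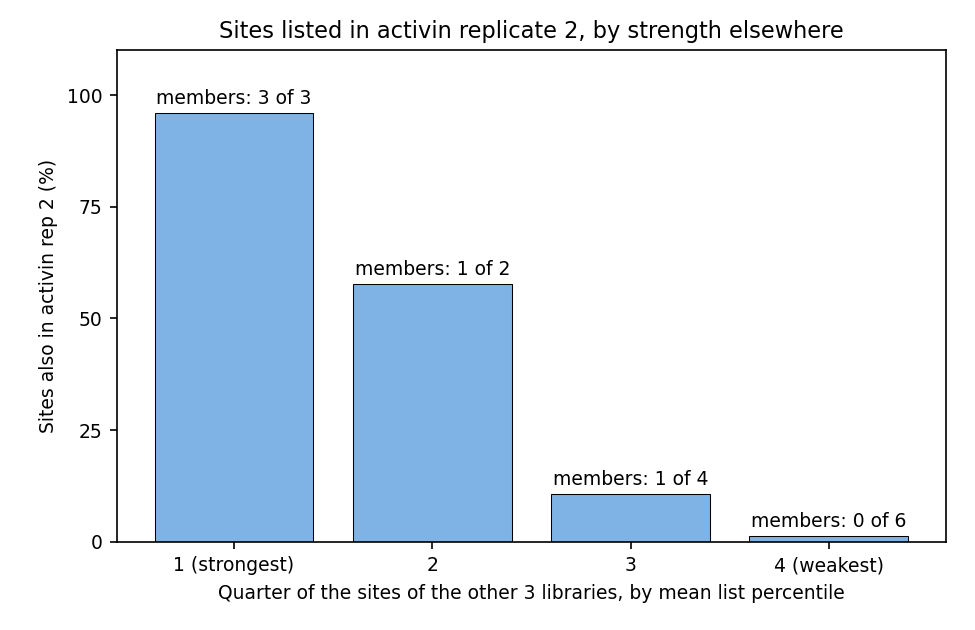
Share of sites of the other 3 libraries that activin replicate 2 also listed (%), in 4 equal bins from the strongest to the weakest by mean list percentile; labels give the member sites. The share falls from 96.0% to 1.25%, and the members fall from 3 of 3 to 0 of 6.

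The number of summits near the 8 genes differed between libraries as their list lengths did. Activin replicates 1 and 2 had 22 and 6 (14 ± 11.3, mean ± SD, n = 2), and the palbociclib libraries 24 and 16 (20 ± 5.66, n = 2). Palbociclib exceeded activin 1.71 times by geometric means, which is 0.77 on the log2 scale, beside 0.75 for all summits. As a share of the list, the members took 0.0861% (Wilson 95% interval 0.0569 to 0.130) and 0.0829% (0.0380 to 0.181) with activin alone. They took 0.0879% (0.0591 to 0.131) and 0.0832% (0.0512 to 0.135) with palbociclib. All 4 shares lay well within each other's intervals, which cover counting error only, and the log2 ratio of shares was 0.02. Without activin replicate 2 the log2 ratio of numbers was -0.17, so that library set its direction.

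By presence in both libraries of a group and neither of the other, 1 of 29 member sites separated the treatments. All 4 libraries shared 5 sites (17.2% of the members, against 15.9% of all sites), and 3 shared 10 (34.5% against 23.5%). Only the VIM site 3.31 kb downstream was in both palbociclib libraries and neither activin library, which is 3.45% of the members against 3.56% of all sites. No member site was in both activin libraries and neither palbociclib library, against 0.344% of all sites. Of the rest, 4 were in activin replicate 1 alone, 5 in palbociclib replicate 1 alone, 1 in activin replicate 2 alone, and 3 in the replicate 1 libraries alone.

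Strength between treatments was compared by rank over the 5829 sites found in all 4 libraries, so that each library ranked the same sites. At CDH2 the percentiles were 64.8 and 63.5 in the activin libraries and 53.8 and 38.5 in the palbociclib libraries, so the site ranked stronger in both palbociclib libraries. At the VIM site 10.2 kb downstream they were 89.8 and 58.3 against 93.8 and 92.2, so it ranked weaker in both. The activin replicate 2 summit of that site lay 163 bp from the nearest summit of another library, and with joining at 100 bp it was no longer a site of all 4 libraries, which left 4 member sites and only CDH2 apart. At the VIM site 1.11 kb downstream they were 14.5 and 47.8 against 8.09 and 15.5, and at SNAI1 33.6 and 66.5 against 43.3 and 48.2. At the VIM site 26.6 kb upstream they were 90.2 and 87.7 against 85.3 and 88.2. These last 3 overlapped between treatments. The groups were thus apart at 2 of 5 sites, 1 in each direction, while over all common sites both palbociclib libraries were stronger at 26.2% and weaker at 28.2%.

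No member site passed the test of this difference. Ranks were turned into normal scores, in which 1 unit is 1 SD of the sites' scores and a higher score is a stronger site, and limma was fitted over all 5829 sites with Benjamini-Hochberg adjustment. The palbociclib minus activin difference at CDH2 was 0.46 ± 0.25 (SE, n = 2 libraries per group; limma adjusted p = 0.333). At VIM it was 0.65 ± 0.37 for the site at 1.11 kb (limma adjusted p = 0.348), -0.74 ± 0.37 at 10.2 kb (limma adjusted p = 0.290) and 0.11 ± 0.24 at 26.6 kb upstream (limma adjusted p = 0.831). At SNAI1 it was 0.11 ± 0.33 (limma adjusted p = 0.876). The median of the 5 was 0.11, against -0.03 over all common sites. The calls of limma covered 0.0% of the common sites in each direction, although 1273 sites (21.8%), and 0 of the 5 member sites, had an unadjusted p under 0.05. The test thus missed the threshold everywhere, which does not show that the ranks are alike.

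The values of both VIM sites downstream of the start depended on which activin library was used. At 10.2 kb the activin replicate 2 summit may be a separate peak, since it lay 163 bp from the nearest other summit. Without activin replicate 1, limma called 2 of the 5 member sites, against 12.5% of the 5887 sites of the other 3 libraries. There the lone activin library was assumed to vary like the palbociclib libraries. The difference was 1.15 for VIM at 1.11 kb (limma adjusted p = 0.0457) and -1.27 at 10.2 kb (limma adjusted p = 0.0291). The VIM site 26.6 kb upstream was not called, at 0.05 (limma adjusted p = 0.911). Without activin replicate 2 the differences were 0.12 at 1.11 kb (limma adjusted p = 0.846) and -0.16 at 10.2 kb (limma adjusted p = 0.767). The CDH2 difference was 0.28 without activin replicate 2 and 0.27 without palbociclib replicate 2, and it was not called in either.

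**Figure D5:**
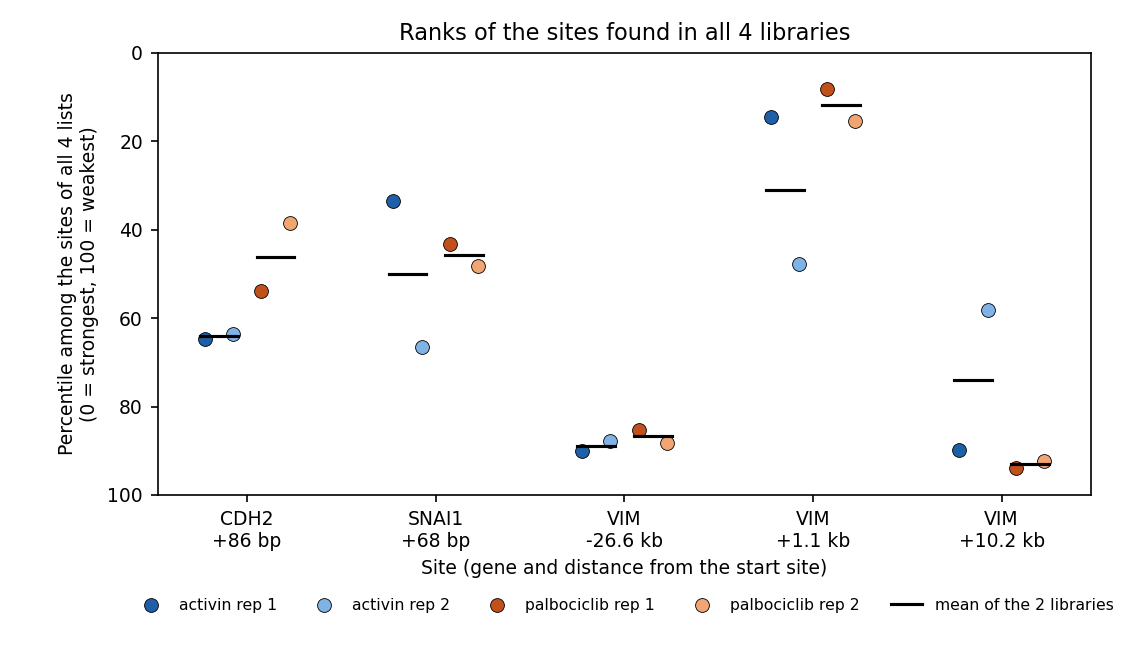
Percentile of the 5 member sites found in all 4 libraries, ranked over the 5829 sites common to them (0 strongest, 100 weakest); points are libraries and bars the mean of 2. CDH2 ranks stronger and VIM at 10.2 kb weaker in both palbociclib libraries, and at SNAI1 and both VIM sites downstream the activin replicates lie far apart.

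Leaving out activin replicate 2 allowed 15 member sites to be ranked over the 14053 sites of the other 3 libraries, which takes in the weaker regulators. Both palbociclib libraries ranked a site stronger than activin replicate 1 at 5 of the 15 (33.3%, against 36.9% of all sites) and weaker at 4 (26.7%, against 38.1%). At the start of SNAI2 the percentile was 88.1 in activin replicate 1 and 93.0 and 85.0 in palbociclib replicates 1 and 2. At the ZEB1 site 252 bp upstream it was 65.4 against 68.3 and 63.6, and at the TWIST1 start 65.2 against 60.2 and 66.6. At each of these 3 sites the activin value lay between the palbociclib replicates. The second ZEB1 site, 1.49 kb downstream, ranked weaker in both palbociclib libraries, at 91.1 against 93.8 and 97.6. At the ZEB2 site 276 bp downstream the percentile was 85.9 against 80.9 and 77.0, stronger in both palbociclib libraries. The ZEB2 site 3.05 kb downstream ranked weaker in both, at 71.0 against 72.7 and 74.0.

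The lowest p in this comparison was at the VIM site 4.47 kb downstream, where the percentile was 97.1 in activin replicate 1 and 88.7 and 85.7 in the palbociclib libraries. Its difference was 0.76 ± 0.21 (SE; limma adjusted p = 0.451, unadjusted 0.0180, with 1 activin and 2 palbociclib libraries), and 1 of the 15 member sites thus had an unadjusted p under 0.05, against 11.0% of the 14053 sites. The summits of this VIM site were spread over 235 bp, close to the joining distance of 250 bp, so they may belong to separate peaks. With a lone activin library the spread in this fit came from the palbociclib pair. limma called 0 of the 15 sites and 0 of the 14053, with adjusted p from 0.451 to 0.980 for the members.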

How the data were processed

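The members and gene lists were chosen with earlier results of these data known. The labels give 1 input library for each treatment, and its use in peak calling was inferred from that. Per the submitters' processing notes, the authors used Bowtie 1.1.0, Picard and MACS2 2.0.9 on hg19. The order and settings of these steps: not given in the sources used here. The deposited score is on a −log10 scale of a p or q value, read from its lowest values (1.31 to 1.40 in the 4 lists), and grows with depth, so it served only for ranks within a list or over the same sites. Depth is unknown. Wilson intervals cover counting error only.

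Start sites were those given for the 8 genes on hg19. The rule for the text named all 8 genes and, in each window, every site in all 4 libraries, every site within 5 kb of the start, the best-ranked site and every site of 1 treatment only. The distance of a site was taken from the middle of its first and last summit. Upstream and downstream follow the gene's strand. limma (no covariates) was fitted to normal scores of ranks over sites of all 4 libraries, called at an adjusted p under 0.05, and was tested on simulated data. With 2 libraries against 2, an exact permutation cannot go below p = 0.333. Alternatives were windows of 10, 25 and 100 kb, joining at 100 and 500 bp, a score of at least 5, lists of equal length, leaving out each library, the replicate number as a block, percentiles and a threshold of 0.1. A gene annotation of hg19 was not used here, so other genes of the transition were not analysed here; the RefSeq table of GRCh38.p14 served for names, neighbours and promoter sequences only, and all 8 symbols matched. Of the 2 inputs no file was used here. The fit ran in R 4.3.3 with limma 3.58.1, and the rest in Python 3.11.15 with scipy 1.17.1, pandas 2.3.3, numpy 2.4.6 and matplotlib 3.10.9.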

Additional observations from a re-analysis of the deposited data

How the results depend on the processing

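Of 136 values recomputed under alternatives, 112 stayed close and 24 did not; the causes were not tested unless stated. Close meant the same direction and side of the threshold for a test, within 1.5 times for a count, and within the replicate SD for a distance or for the log2 ratio of summits (SD 0.982), which was 0.77. CDH1 had no summit in windows of 10, 25, 50 or 100 kb. Lists of equal length (the 7241 best scores of each) cut the sites from 29 to 7, at SNAI1, CDH2 and VIM, by construction, since the sites of SNAI2, ZEB1, ZEB2 and TWIST1 scored below the limit. There the log2 ratio of summits was -0.42, palbociclib-only sites numbered 0, activin-only sites 1, and the treatments were apart by rank at 1 site. A window of 10 kb left 3 sites in all 4 libraries. Joining at 100 bp gave 2 palbociclib-only sites. It left 1 site apart by rank, by construction, as the VIM site at 10.2 kb split. Leaving out each library in turn gave 5 to 15 sites in all remaining libraries, 3 to 7 genes with such a site, 1 to 11 palbociclib-only and 0 to 4 activin-only sites, since fewer lists decide; the count of 15 was without activin replicate 2 and that of 11 without activin replicate 1. limma then called 0 to 736 sites, and 0 to 2 near the 8 genes, all without activin replicate 1. The SNAI1 difference, 0.11 with all libraries, ranged from -0.22 (without activin replicate 2) to 0.54 (without activin replicate 1), and none of these was called. The log2 ratio then ranged from -0.17, a change of sign within that SD, without activin replicate 2 to 1.71 without activin replicate 1. With the replicate block, limma called 962 sites and none near the 8 genes. Same-numbered libraries deviated together across the 5829 sites (r = 0.280, not independent points), but the labels give only a shared number and 2 pairs cannot show pairing.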
